A study of Mus musculus with 13 samples.

Results

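Of 12197 genes with an H3K4me3 peak near the transcription start site (TSS) in both sg-Ctrl and Nup210 knockout (KO) 4T1 cells, 268 (2.2%) had a ratio of H3K4me3 in KO to that in sg-Ctrl at least 2 times that of the typical gene. These promoters were chosen on the H3K4me3 reads themselves. For each gene and each library, the TSS peak with the most reads per kb was taken, its reads were divided by the size of the library relative to IgG, and the KO value was divided by the sg-Ctrl value. This ratio was then divided by its median over all 12197 genes, and genes with a relative ratio of at least 2 were kept. The median itself was 0.707 (-0.50 on the log2 scale), so a gene with unchanged reads per kb after library scaling already had a relative ratio above 1, and a library-size ratio of 1.41 was enough to be a member. All H3K4me3 values below are therefore a description of the selection and were not tested.

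4T1 is a metastatic mammary tumor cell line of BALB/cJ mice. NUP210 is a transmembrane protein of the nuclear pore. The sg-Ctrl cells carry a non-targeting guide RNA, and the KO cells are clone N13, a single clone. It was grown from 1 sorted GFP-positive cell that stably carried a guide RNA to an early exon of Nup210 and had received Cas9 for a short time from an adenovirus. The authors passaged sg-Ctrl and KO cells alike before functional assays, to clear leftover Cas9-GFP signal. H3K4me3 and H3K27me3 were profiled by ChIP-seq in sg-Ctrl and KO cells and compared with the same rabbit IgG library, and peaks of NUP210 and of several nuclear pore proteins recognised by 1 antibody (NPC) are from sg-Ctrl cells alone. There was 1 library for each mark and condition, so a clone, a culture and a library cannot be told apart from the knockout, and the intervals given are 95% exact intervals that cover counting error only.

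H3K4me3 is laid down at active and poised promoters, most strongly where the DNA is rich in CpG dinucleotides. H3K27me3 is laid down by Polycomb repressive complex 2 over silent genes, and promoters of developmental genes can carry both marks at once, a state known as bivalent. Gene groups that are often found in that state are transcription factors of the embryo, Wnt and FGF signalling genes and genes of neurons.

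To show what kind of DNA lies at these promoters, the 250 bases before the RefSeq gene start are printed for the 6 genes with the highest relative ratio and overlapping peaks whose start was found in the RefSeq table (GRCm38.p6), 5′ to 3′ on the strand of the gene, with every CG in capitals.
Iqgap2 (chr13:95891923-95892172, minus strand): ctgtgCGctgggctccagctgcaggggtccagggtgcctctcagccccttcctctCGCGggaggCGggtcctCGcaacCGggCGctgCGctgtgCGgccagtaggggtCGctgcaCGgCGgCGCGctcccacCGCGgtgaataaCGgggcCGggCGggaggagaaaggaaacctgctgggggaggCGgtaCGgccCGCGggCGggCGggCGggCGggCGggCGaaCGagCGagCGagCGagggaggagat
Ccnjl (chr11:43528499-43528748, plus strand): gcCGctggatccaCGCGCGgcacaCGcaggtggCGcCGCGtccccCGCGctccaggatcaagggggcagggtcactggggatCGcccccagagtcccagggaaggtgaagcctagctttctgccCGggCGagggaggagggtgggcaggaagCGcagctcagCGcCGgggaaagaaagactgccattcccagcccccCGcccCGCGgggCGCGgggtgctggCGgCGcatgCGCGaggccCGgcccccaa
Olfr460 (chr6:40571138-40571387, plus strand): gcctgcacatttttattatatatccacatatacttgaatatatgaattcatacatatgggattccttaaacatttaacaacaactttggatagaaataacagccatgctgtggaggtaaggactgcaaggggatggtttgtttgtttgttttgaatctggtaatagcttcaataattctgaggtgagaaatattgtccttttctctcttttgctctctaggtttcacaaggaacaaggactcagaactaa
Kcng3 (chr17:83631896-83632145, minus strand): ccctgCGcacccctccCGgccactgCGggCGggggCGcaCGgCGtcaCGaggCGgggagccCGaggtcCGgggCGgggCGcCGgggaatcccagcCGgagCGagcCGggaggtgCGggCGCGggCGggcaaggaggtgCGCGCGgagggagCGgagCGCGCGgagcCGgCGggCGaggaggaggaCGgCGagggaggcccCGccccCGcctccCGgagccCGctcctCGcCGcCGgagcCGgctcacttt
Mdga1 (chr17:29887883-29888132, minus strand): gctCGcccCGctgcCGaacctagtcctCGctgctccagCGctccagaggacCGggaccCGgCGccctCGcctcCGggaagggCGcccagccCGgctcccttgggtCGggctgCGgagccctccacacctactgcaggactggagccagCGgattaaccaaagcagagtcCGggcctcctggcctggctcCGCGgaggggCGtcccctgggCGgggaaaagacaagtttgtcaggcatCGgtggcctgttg
Grb14 (chr2:65022767-65023016, minus strand): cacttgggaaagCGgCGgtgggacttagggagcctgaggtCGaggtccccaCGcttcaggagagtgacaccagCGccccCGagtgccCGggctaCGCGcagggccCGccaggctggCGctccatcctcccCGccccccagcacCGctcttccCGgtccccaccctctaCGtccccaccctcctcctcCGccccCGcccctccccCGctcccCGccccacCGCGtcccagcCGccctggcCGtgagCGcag

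The windows of Iqgap2, Ccnjl, Mdga1 and Grb14 lay inside the H3K4me3 peak of both libraries, that of Kcng3 lay 655 bases from its KO peak, and that of Olfr460 lay 1013 bases from it. Kcng3 had 41 CG in 250 bases, Iqgap2 33, Ccnjl 26, Grb14 24 and Mdga1 21, and the GC content of these 5 was between 70.4% and 82.4%. The window of Olfr460, a gene of an odorant receptor, had 0 CG and a GC content of 34.8%.

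The libraries held 26236314 H3K4me3 reads in 11018 peaks in sg-Ctrl and 24873356 reads in 10854 peaks in KO, and the KO library was 1.27 times as deep relative to IgG. A TSS peak was present in both libraries for 6 of 6 epithelial markers, 1 of 4 myoepithelial markers, 2 of 5 fibroblast markers and 0 of 5 blood cell markers. Nup210 itself had 885 reads over 2600 bp in sg-Ctrl and 913 reads over 2800 bp in KO, with a relative ratio of 1.07, a promoter value that does not check a knockout made in the coding sequence.

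The promoters that were relatively higher in KO were weak promoters. In sg-Ctrl their median density was 94.9 scaled reads per kb of peak, against 543 over all genes, and in KO it was 179 against 382. Their peaks were narrow, with a median width of 1400 bp in sg-Ctrl and 1800 bp in KO, against 3600 bp and 4200 bp over all genes. The median sg-Ctrl peak of a member held 141 reads and the KO peak 404, against 2187 and 2170 over all genes. Ranked by sg-Ctrl density, the members had a median percentile of 2.87, and 237 of the 268 lay in the lowest decile of genes, 21 in the second decile and 0 above the fifth decile, a position that the ratio favours since sg-Ctrl density is its denominator. In the lowest decile 19.4% of the genes were members, in the second 1.72%, and from the sixth decile upwards none. The median relative ratio of all genes was 1.41 in the lowest decile, lower in each next one, and 0.784 in the highest.

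**Figure D1:**
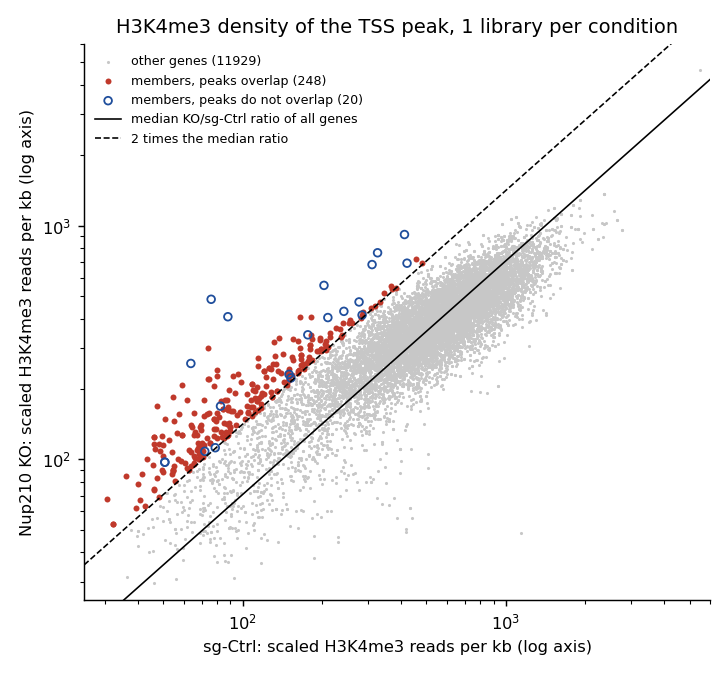
H3K4me3 density of the TSS peak (scaled reads per kb, log axes) in sg-Ctrl (horizontal) and Nup210 KO (vertical), 1 point per gene and 1 library per condition. The members lie above the dashed line, which is 2 times the median ratio of 0.707 (solid line), and 237 of 268 lie in the lowest decile of sg-Ctrl density. The 20 members drawn as open circles have peaks that do not overlap.

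The relative ratio of the members had a median of 2.35 and ran from 2.00 to 9.02, with 162 members below 2.5 and 52 at 3 or above. The counting interval of the relative ratio lay above 1 for all 268 members, with a lowest bound of 1.36, and above 2 for 118. These intervals use the same reads that chose the members, so they are no separate check. By library size alone, without division by the median, all 268 were higher in KO, which follows from the minimum library-size ratio of 1.41. At least 2-fold higher were 64, and these are all the genes that were (0.525% of the 12197), which also follows from the rule. Just inside the threshold were Trio (1206 reads over 4800 bp in sg-Ctrl, 1901 over 4200 bp in KO), Smagp (156 and 281 reads, both over 1000 bp) and Amigo1 (442 and 796 reads, both over 2000 bp). Just outside it were Prosapip1 (245 and 440 reads, both over 2200 bp), Spsb4 (1320 reads over 3600 bp, 2236 over 3400 bp) and Aqp1 (48 reads over 800 bp, 129 over 1200 bp), all with a relative ratio that rounds to 2.00 or 1.99.

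Among members with overlapping peaks and at least 100 reads in either library, the 20 with the highest ratio had densities (scaled reads per kb) between 46.0 and 165 in the sg-Ctrl library, and between 117 and 408 in KO. In sg-Ctrl 7 of the 20 had 100 reads or more, so the others entered through the KO library, where they are high, and the counts over the 20 describe this choice. All 20 were in the lowest decile of sg-Ctrl density, all 20 were at least 2-fold higher by library size alone, and the KO peak was wider in 19 and of the same width in 1. The wider peaks also held more reads, which follows from a higher density over a wider peak. By the reads of each library's own peaks in the joined region, all 20 had a relative ratio of at least 2. Reads outside a library's own peaks are not counted, so this is no comparison over equal regions.

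Tgfbr3 encodes betaglycan, a co-receptor of TGF-beta. Its peak (chr5:107288401-107290000 in KO) held 60 reads over 1200 bp in sg-Ctrl and 364 over 1600 bp in KO, or 47.1 and 169 scaled reads per kb, a relative ratio of 5.06 (3.85 to 6.77). Iqgap2, a scaffold protein that binds actin, had 125 reads over 2000 bp and 672 over 2400 bp (chr13:95890601-95893000), or 58.9 and 208 per kb, a relative ratio of 4.99 (4.11 to 6.08). Ccnjl, a cyclin J-like gene, had 81 reads over 1400 bp and 751 over 3000 bp, or 54.5 and 186 per kb, a relative ratio of 4.82 (3.83 to 6.13). In each of these 3 genes the sg-Ctrl peak was among the lowest 1% of the 12197 by density, and the KO peak stood at percentiles of 9.40, 14 and 11.2 among KO peaks.

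Signalling genes among the 20 were Sfrp1, a secreted antagonist of Wnt, and Lgr6, a receptor of R-spondins that amplify Wnt signals. Sfrp1 had 127 reads over 1600 bp in sg-Ctrl and 773 over 2600 bp in KO, or 74.8 and 221 scaled reads per kb, with a relative ratio of 4.17 (3.45 to 5.07). Lgr6 had 99 reads over 1200 bp and 388 over 1400 bp, or 77.8 and 206 per kb, with a relative ratio of 3.74 (2.99 to 4.71). Grb14, an adaptor that binds the insulin receptor, had 73 reads over 1200 bp and 505 over 2400 bp, and a relative ratio of 3.85 (3.01 to 4.99). Genes of excitable cells were Kcng3 and Kcnh3, subunits of voltage-gated potassium channels, Cacng7, a calcium channel gamma subunit, and Mdga1, a neuronal adhesion protein. Tppp encodes a tubulin polymerization promoting protein. Kcng3 had 47 reads in sg-Ctrl and 358 in KO, Kcnh3 234 and 797, Cacng7 43 and 281, Mdga1 272 and 1467 and Tppp 78 and 315, with relative ratios of 4.24, 3.50, 4.16, 4.00 and 3.60. The T-box transcription factor gene Tbx2 and the transcript 2610027K06Rik share 1 peak, which went from 78 reads over 1600 bp to 402 over 2400 bp, a relative ratio of 3.82 (2.99 to 4.94) that counts for both. Plcl2, a phospholipase C-like protein, Zbtb8b, a BTB zinc finger protein, Nxnl2, a nucleoredoxin-like protein, and the transcript 9530026P05Rik had relative ratios of 4.13, 3.60, 3.54 and 3.76. For all 20 the counting interval of the relative ratio lay above 2.

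**Figure D2:**
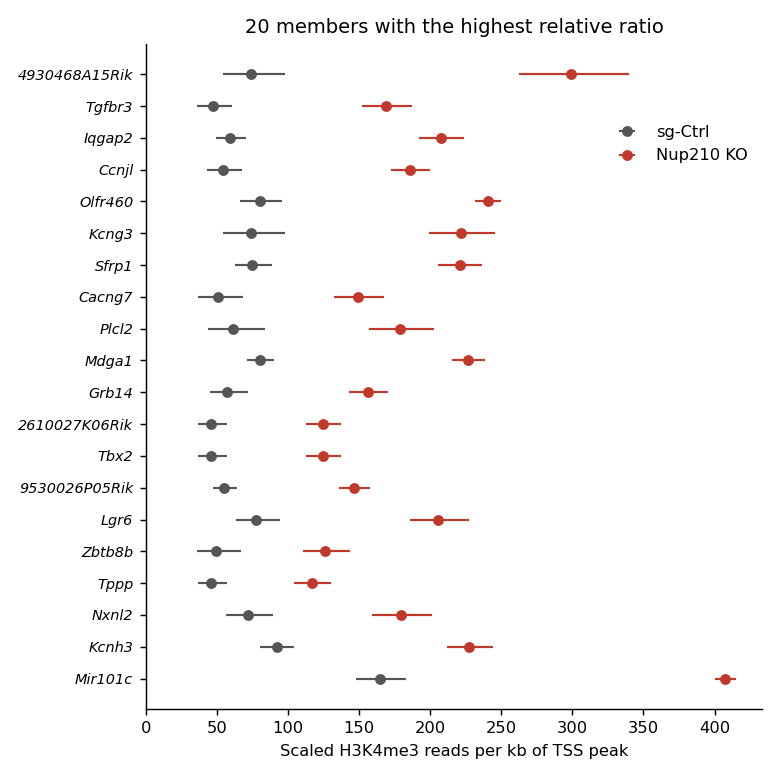
Scaled H3K4me3 reads per kb of the TSS peak in sg-Ctrl (grey) and Nup210 KO (red) for 20 members, in order from the top. They have the highest relative ratios among members with overlapping peaks and at least 100 reads in either library. Bars are exact 95% Poisson intervals of the reads, 1 library per condition, and cover counting error only. The sg-Ctrl values lie between 46.0 and 165 and the KO values between 117 and 408.

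At 3 of the 20 the peak itself calls for care. The peak of 4930468A15Rik, which has the highest relative ratio of them at 5.73, had 47 sg-Ctrl reads and 242 KO reads over the same 600 bp, while the IgG library had 537 reads there. That of Mir101c, a microRNA gene, went from 350 reads over 2000 bp to 12743 over 23200 bp, with 3448 and 26044 IgG reads, the most of any member. At both genes, and at Hdx with 33 and 72 reads against 122 in IgG, ChIP reads were below scaled IgG in both libraries, which holds for 3 of the 268 members and 4 of all 12197 genes. The peak of Olfr460 went from 119 reads over 1400 bp to 2591 over 8000 bp, with 17 and 132 IgG reads. At the other end, 85 members (31.7%) had no IgG read at all in the sg-Ctrl peak, against 4.57% of all genes. In the lowest decile of sg-Ctrl density these shares were 34.6% of members and 21.4% of the other genes. With IgG reads subtracted 261 of the 268 members still passed the threshold, and with the fold over IgG 184 did. What part IgG reads play in the ratios was not tested.

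Not every member gained reads. The KO peak was wider than the sg-Ctrl peak in 162 members (60.4%), narrower in 65 (24.3%) and of the same width in 41, against 63.1%, 27.1% and 9.85% of all genes. That the wider members also had more reads follows from the rule, since a higher density over a wider peak means more reads. Of the 144 among them whose peaks overlap, 141 had a relative ratio of at least 2 by the reads of all peaks in the joined region. This count therefore adds no separate check. Of 63 narrower members whose peaks overlap, 9 did, and 17 narrower members had a relative ratio below 1 by total reads. In these 17 the KO peak held relatively fewer reads over a narrower width, and the reads per kb were higher. By library scaling alone, without division by the median, 28 narrower members had fewer reads in KO.

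Cdh1, the gene of the epithelial adhesion protein E-cadherin, was the member with the most sg-Ctrl reads. It had 4533 reads over 9400 bp in sg-Ctrl and 4666 over 4800 bp in KO, so that the density was 455 and 721 scaled reads per kb (relative ratio 2.24) while the joined region gave 1.02. Foxf1, a forkhead transcription factor gene that shares its peak with the noncoding Fendrr, went from 1346 reads over 6400 bp to 958 over 2400 bp, with 2.11 by density and 0.705 by joined region. Wnt7b, a Wnt ligand, and Sema3f, a secreted semaphorin, were of the same kind, with 2.40 and 2.13 by density and 0.935 and 0.872 by joined region. Plat, tissue plasminogen activator, and Cldn1, a claudin of tight junctions, had fewer reads in KO, 140 against 194 and 29 against 54. Plat gave 0.715 and Cldn1 0.532 by joined region. For Foxf1, Wnt7b, Sema3f, Plat and Cldn1 the direction thus depends on whether reads are counted per kb or in all. For Cdh1 almost no difference from the median gene is left in all reads. By library scaling alone Cdh1 had fewer reads in KO. With total scaled reads in place of reads per kb, 418 genes passed the same threshold (3.43% of the 12197), and 184 of the 268 members were among them.

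In 20 members the peaks compared were not the same region. These genes include Wdr64, a WD repeat gene, Ckb, brain-type creatine kinase, and Nrtn, the neurotrophic factor neurturin, whose relative ratios of 9.02, 6.56 and 5.72 were among the highest. The Wdr64 peak had 129 reads over 1600 bp in sg-Ctrl, while the peak taken in KO was another one, with 3005 reads over 4600 bp, 4200 bp away. At that KO position sg-Ctrl also had a peak, of 2446 reads over 3600 bp, which the sg-Ctrl list pairs with Chml and Opn3 and not with Wdr64, and against it the relative ratio was 1.07. At the sg-Ctrl position KO had 82 reads over 1200 bp, a relative ratio of 0.943. Ckb was alike: 56 reads over 600 bp in sg-Ctrl, 2640 over 4800 bp in KO, and 1719 sg-Ctrl reads at the KO position, in a peak paired with Trmt61a, against which the relative ratio was 0.926. Nrtn gave 1.25 at the KO position, where the sg-Ctrl peak was paired with Dus3l, and 2.38 at the sg-Ctrl position, where KO had 202 reads against 81.

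For 18 of the 20 an sg-Ctrl peak was listed at the KO position, and for 13 it was paired with neighbouring genes alone. The relative ratio at the KO position was between 0.514 and 3.43 with a median of 0.946, and 5 of 18 were at least 2. At the sg-Ctrl position it was between 0.943 and 2.38 with a median of 1.36, and 1 of 18 was at least 2. Lrrc73, with 3.85 by the rule, gave 0.871 at the KO position. Rgma, a repulsive guidance molecule, shares its peaks with A730056A06Rik and gave 3.43 there, Wnt5b, a Wnt ligand, 2.71, Mcam, a cell adhesion molecule of the immunoglobulin family, 2.26 and Lsp1, a lymphocyte protein that binds actin, 2.15. The peak of Trim27 in KO held 18273 reads over 19600 bp, the most of any member, and no sg-Ctrl peak of the list met it.

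H3K27me3, which the selection did not use, lay on the gene body of 94 members in sg-Ctrl (35.1%, 29.4% to 41.1%) and of 74 in KO (27.6%, 22.3% to 33.4%), against 5.46% and 4.30% of all genes. It was present in both for 63 members. Weak H3K4me3 promoters carried H3K27me3 more often in general. Among genes of the lowest decile of sg-Ctrl density the share was 38% of 237 members (31.8% to 44.5%) and 19.8% of the 982 other genes (17.3% to 22.4%). Within this decile the members were also the weaker promoters, with a median sg-Ctrl density of 87.5 against 142 scaled reads per kb, so promoter strength and membership cannot be told apart here. Genes that are neighbours or share a peak are not independent, which these intervals leave out. The members of this decile had a median length of 22.0 kb and the other genes 16.2 kb, and the part of gene length in these shares was not tested. Counted only where an H3K27me3 peak met the TSS peak itself, the shares were 24.1% (18.8% to 30.0%) and 9.67% (7.90% to 11.7%). Members with H3K27me3 in either library had a median length of 66.0 kb and a median sg-Ctrl H3K4me3 density of 80.1, and members without it 11.3 kb and 115. Their median relative ratios were 2.5 and 2.26.

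**Figure D3:**
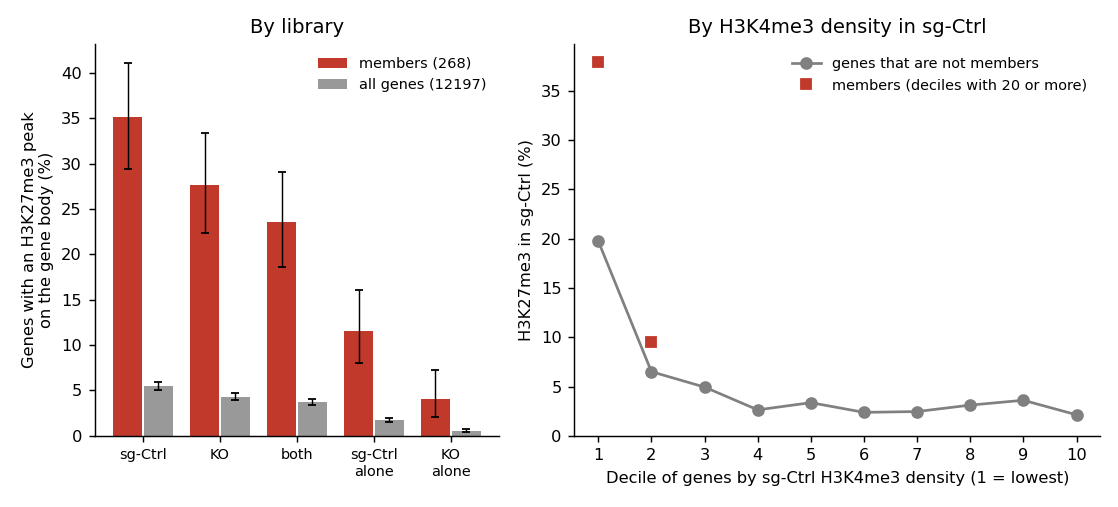
Left, share of genes whose body carried an H3K27me3 peak, by library, for the 268 members (red) and all 12197 genes (grey), with exact 95% binomial intervals. Right, the share in sg-Ctrl over deciles of genes by sg-Ctrl H3K4me3 density, for genes that are not members (grey line) and for members in deciles that hold at least 20 of them (red squares). In the lowest decile the shares are 38% and 19.8%.

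In 31 members (11.6%) the H3K27me3 peak was in sg-Ctrl alone, against 1.72% of all genes, and in 11 (4.10%) in KO alone, against 0.558%. Of the members with H3K27me3 in either library, 29.5% (21.0% to 39.2%) had it in sg-Ctrl alone, an interval that includes the 28.6% of all genes with H3K27me3. The H3K27me3 libraries differ in depth, with sizes of 0.847 in sg-Ctrl and 2.68 in KO relative to IgG, and the part of depth in peaks found in 1 library was not tested. Where both libraries had the mark, its scaled reads per kb in KO were 0.907 times those in sg-Ctrl in the median of 63 members and 0.888 times in that of all 456 such genes.

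The members with H3K27me3 in sg-Ctrl alone were led by Plcl1, a phospholipase C-like protein, where it covered 260 kb of the gene, and by Iqgap2 with 70.9 kb. Dpysl5, a collapsin response mediator protein, had 49 kb, the receptor tyrosine kinase gene Mertk 41 kb, the microtubule-associated Mtus1 37.7 kb, AI118078 34.1 kb, Sh2d4a 32 kb and the kinase gene Camk1d 20 kb. Plcl1 had 72 H3K4me3 reads over 1200 bp in sg-Ctrl and 630 over 3600 bp in KO, a relative ratio of 3.25, while the other 6 after Iqgap2 had relative ratios between 2.06 and 2.69. Of the 20 members with the highest ratios among those with overlapping peaks, 10 had H3K27me3 in either library. It was in both for 6 and in sg-Ctrl alone for 4 (Iqgap2, Ccnjl, Mdga1 and Tppp). The 6 include 4930468A15Rik and Mir101c, whose H3K27me3 reads were also below scaled IgG in both libraries. Their highest folds over IgG in sg-Ctrl and KO were 0.168 and 0.227 for 4930468A15Rik, and 0.104 and 0.0613 for Mir101c. The longest H3K27me3 in KO alone lay on Ciita, the class II transactivator of antigen presentation, over 20.9 kb, followed by Arhgap44 with 16 kb, Cldn1 with 15.2 kb, Tspan8, a tetraspanin, with 10.9 kb, Ankrd33b with 9.52 kb, Casp1, the protease of the inflammasome, with 8.76 kb, Olfm1, an olfactomedin, with 7 kb and Lrrc8e, a subunit of volume-regulated anion channels, with 4.17 kb. The relative H3K4me3 ratios of these 8 were between 2.06 and 2.94, and apart from Olfm1, Ankrd33b and Lrrc8e they had at most 301 H3K4me3 reads in KO.

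NUP210 peaks lay on the gene body of 42 members (15.7%, 11.5% to 20.6%) and NPC peaks on 37 (13.8%, 9.91% to 18.5%), below the 26.3% and 24.9% of all genes. In the lowest decile of sg-Ctrl density the shares were 16.0% of members and 16.9% of other genes for NUP210, and 13.9% and 15.5% for NPC, with overlapping counting intervals. With a fold over IgG of at least 2, NUP210 was left on 3 members (1.12%, against 1.35% of all genes) and NPC on 2 (0.746%, against 0.189%).

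By function, the share of members was highest in the lists of ion channels, cell junctions, developmental transcription factors, proteases and developmental signalling, each above 12%, against 2.2% of all genes. Of 88 homeobox and other developmental transcription factor genes, 12 were members (13.6%), and the median relative ratio of the 88 was 1.14. They were Irx3, Meis3, Foxf1, Nkx6-3, Hoxd3, Pitx1, Tbx2, Lhx4, Hoxa13, Sox8, Hoxd13 and Hoxd12. Irx3 had 719 reads over 2400 bp in sg-Ctrl and 1524 over 2800 bp in KO (2.02), Meis3 485 and 979 reads (2.09) and Nkx6-3 310 over 1800 bp and 955 over 2200 bp (2.81). Hoxd12 and Hoxd13 share a peak that had 48 reads over 1400 bp and 172 over 2400 bp (2.33), and its 53.2 scaled reads per kb were the lowest KO density of any member. H3K27me3 in sg-Ctrl lay on 5 of the 12 and on 10 of the 88.

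Of 74 genes of the Wnt, FGF, TGF-beta, Notch and Hedgehog pathways, 9 were members (12.2%), and the median relative ratio of the list was 1.26. Their ligands were Wnt7b, Wnt11, Wnt5b, Fgf15 and Inhbb, an inhibin and activin subunit, the receptors Fzd7, a frizzled, and Tgfbr3, and the binding proteins Sfrp1 and Fgfbp3. Inhbb had 169 reads over 1800 bp in sg-Ctrl and 640 over 2400 bp in KO (3.16), and Wnt11 186 over 2000 bp and 629 over 2600 bp (2.90). Fzd7 had 1871 reads over 7800 bp and 1770 over 3600 bp (2.28), a narrower peak with no more reads. Fgfbp3 and Wnt5b belong to the genes whose peaks do not overlap, and at the KO position Fgfbp3 gave 0.861. Of 50 genes of axon guidance and synapses, 4 were members (8%), with a list median of 1.26. They were the semaphorins Sema3f and Sema6d, the ephrin Efna3 and the semaphorin receptor Plxna4. Sema6d had 541 reads over 2800 bp and 2078 over 3800 bp (3.15).

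Of 43 ion channel and neurotransmitter receptor genes, 8 were members (18.6%), the highest share of the lists, with a list median of 1.10. They were the potassium channel genes Kcnh3, Kcng3 and Kcnn1, the cation channel genes Trpm6 and Trpc1, the sodium channel gene Scn2a1, Cacng7 and the muscarinic receptor gene Chrm4. Trpm6 had 1021 reads over 2800 bp in sg-Ctrl and 2079 over 3000 bp in KO (2.12), Trpc1 395 over 3400 bp and 746 over 2800 bp (2.55), and Scn2a1 102 over 1000 bp and 374 over 1200 bp (3.40). H3K27me3 covered 91 kb of the 97 kb of Scn2a1 in sg-Ctrl and 80 kb in KO.

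Of 48 protease and serpin genes, 6 were members (12.5%): Adamts8, Mmp15, Serpinb8, Adam3, Adamtsl3 and Plat. Adam3 is one of the genes without overlap. Mmp15, a membrane-type matrix metalloproteinase, had 95 reads over 1400 bp and 492 over 2600 bp (3.10), and Adamts8 287 over 2200 bp and 777 over 2800 bp (2.37). Of 29 cadherin, protocadherin and tight junction genes, 4 were members (13.8%), which were Cdh1, Cldn1, and Pcdhb21 and Pcdhb22 on a shared peak of 160 and 331 reads (2.76). The list medians were 1.09 for proteases and 1.11 for junction genes. H3K27me3 in sg-Ctrl lay on 2 of the 9 signalling members and on 5 of the 74 genes of that list. For axon guidance it lay on 2 of 4 members and 6 of 50 genes, and for ion channels on 3 of 8 and 6 of 43. It lay on 4 of the 6 protease members and 7 of the 48 genes, and on 0 of the 4 junction members and 2 of the 29 genes. All 6 of these lists were rich in weak promoters: the lowest decile of sg-Ctrl density, which holds 1219 of the 12197 genes, held 24 of the 88 transcription factors, 24 of the 74 signalling genes, 17 of the 50 axon guidance genes, 15 of the 43 ion channels, 16 of the 48 proteases and 6 of the 29 junction genes.

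Lists with 1 member, with shares between 1.12% and 4.17%, were the 37 genes of integrins and focal adhesion (Itgb8, 55 reads over 1200 bp and 136 over 1000 bp, 3.30), the 34 of collagens and matrix (Col23a1, 2.02), the 49 of the interferon response (Ifit2, 1485 reads over 4200 bp and 1789 over 2800 bp, 2.01), the 24 of antigen presentation (Ciita, 2.11), the 60 histone genes (Hist3h2ba, one of the genes without overlap), the 89 genes of the cell cycle list (Cdk5r2, an activator of a neuronal kinase, 2.57) and the 70 of xenobiotic and lipid metabolism (Cyp27b1, the enzyme that activates vitamin D, 2.20).

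Chemokines, cytokines and their receptors gave 2 of 67, the interleukin 17 receptor genes Il17rd (2.13) and Il17re (2.29). The cytoskeleton list gave 2 of 71, Tubgcp6, a protein of the gamma-tubulin complex whose peaks do not overlap, and Myo5c, a myosin (2.27). Solute carriers gave 6 of 209 (2.87%), near the share of all genes, and one of them, Slc9a3r1, is a regulator and not a carrier. Zinc finger proteins gave 3 of 359 (0.836%) and unnamed transcripts 29 of 1025 (2.83%). Small RNA genes gave 4 of 258 (1.55%), among them Mir675, which shares its peak with the imprinted noncoding RNA gene H19, with 106 reads over 600 bp in sg-Ctrl and 301 over 800 bp in KO (2.37). No member came from the 51 AP-1 and immediate early genes, the 77 genes of histone-modifying enzymes, the 31 nucleoporin genes, the 168 ribosomal protein genes or the 97 respiratory chain genes. The median relative ratios of these 5 lists were between 0.988 and 1.05. Over all genes the share of members was 2.2%. The lowest decile of sg-Ctrl density held 6 of the 51 AP-1 and immediate early genes and 8 of the 77 genes of histone-modifying enzymes. It held 0 of the 31 nucleoporin genes, 1 of the 168 ribosomal protein genes and 0 of the 97 respiratory chain genes.

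The promoter DNA of the members was less rich in CpG than that of all genes and richer than that of other weak promoters. Over the 250 bases before the gene start in NCBIM37, known for 244 of the 268 members and 91.0% of all genes, the median observed over expected CpG was 0.668 in members (0.63 to 0.70), 0.755 in all genes and 0.583 (0.553 to 0.606) in the other genes of the lowest decile of sg-Ctrl density. It was at least 0.6 in 59.8% of members, 71.2% of all genes and 47.3% of those other genes. The median GC content was 62.4%, 60.8% and 60%. The letters CCAAT, on either strand, were found in 27.9% of members (22.3% to 33.9%), 36.1% of all genes and 32.7% of the other genes of the lowest decile. TATAAA was found in 6.56%, 5.72% and 6.05%. These matches describe the letters in the window and say nothing of binding. The window is also not always the DNA under the peak. The sg-Ctrl peak covered the gene start in 77.2% of members, 91.1% of all genes and 73.8% of the other genes of the lowest decile.

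**Figure D4:**
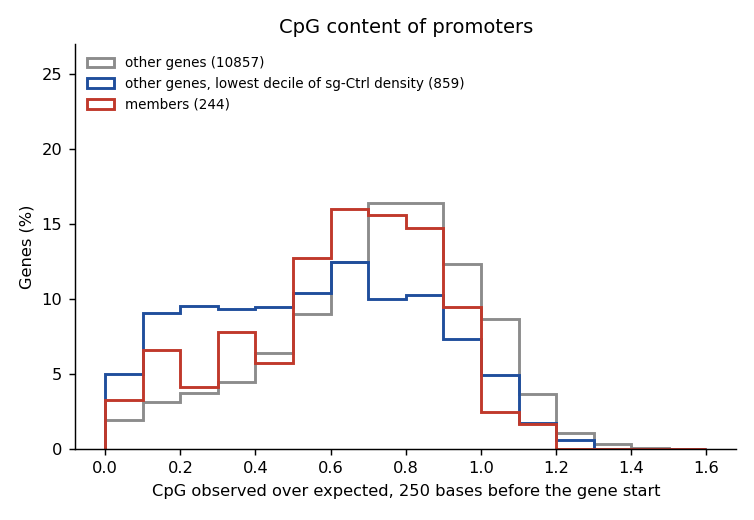
Observed over expected CpG in the 250 bases before the gene start, in bins of 0.1, as a percentage of the genes in each group: members (red), other genes of the lowest decile of sg-Ctrl H3K4me3 density (blue) and all other genes (grey). The medians are 0.668 for members and 0.583 for the other genes of the lowest decile.

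The members lay on all autosomes and on X. Their share of genes was highest on chromosome 8, with 27 of 672 (4.02%, 2.66% to 5.79%), followed by X with 12 of 345 (3.48%, 1.81% to 6.0%), and lowest on chromosomes 3 and 4, with 6 of 585 (1.03%) and 8 of 774 (1.03%). The median over all genes also differed between chromosomes. The median relative ratio was 1.10 on chromosome 8 and on X and 0.859 on chromosome 4. Relative to the median of the same chromosome, 16 genes of chromosome 8 and 21 of chromosome 4 reached a ratio of 2, and 227 of the 268 members did.

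**Figure D5:**
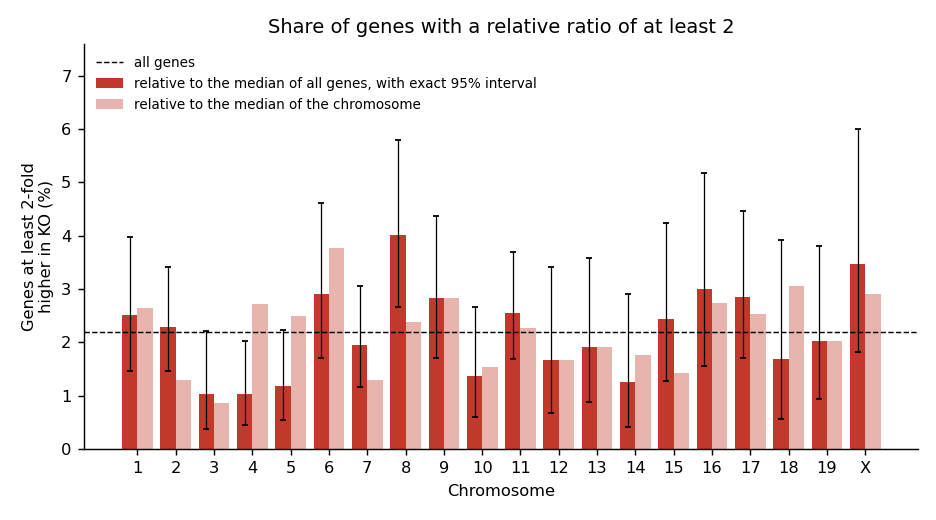
Share of genes with a relative ratio of at least 2 on each chromosome, relative to the median of all genes (dark bars, with exact 95% binomial intervals) and to the median of the same chromosome (light bars). The dashed line is the share of all genes, 2.2%. Chromosome 8 stands at 4.02% in the first and 2.38% in the second.

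By position, 55 members fell into 24 groups in which neighbours were within 500 kb and did not all share a peak, a count that was not set against that of other genes. Of the members, 40 shared a KO peak with another member, so that the 268 genes stand for 248 peaks. Groups with 3 peaks were Ttyh2, Slc9a3r1 and Hid1 on chromosome 11, and Plat, Nkx6-3 and Sfrp1, Tmem59l, Rab3a and Kcnn1, and 6430548M08Rik, Fam92b and Gse1 on chromosome 8. Rab3a is one of the genes without overlap, with a relative ratio of 0.514 at the KO position and 0.992 at the sg-Ctrl position. In the group of Plat, Nkx6-3 and Sfrp1, over 654 kb, Sfrp1 and Nkx6-3 had more reads in KO and Plat had fewer. In the HoxD cluster, within 47.8 kb, Hoxd13 and Hoxd12 on 1 peak and Hoxd3 and 1700109F18Rik on another were members, the second peak having 357 reads over 2600 bp in sg-Ctrl and 701 over 2800 bp in KO (2.03).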

How the data were processed

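For every ChIP-seq library the authors called peaks over IgG with SICER, using 200 bp windows for H3K4me3 and 1000 bp windows otherwise. Peaks are paired with gene bodies or, for H3K4me3, with a window reaching 4 kb to each side of the gene start. Each deposited line gives whole read counts (ChIP and IgG, unscaled). It also gives a deposited p-value, an FDR, and a library-scaled ratio, the fold over IgG, in which 0.25 reads stand in for none. The submitters' processing notes list Bowtie2, and name mm9, mm10 and NCBIM37 with no role. The build of the ChIP-seq lists is not given in the sources used here. Of the gene starts matched by symbol, 88.5% lay within 50 bp of GRCm38.p6, so its RefSeq sequences are printed. RNA-seq was done in 4 other samples, not analysed here.

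Library sizes relative to IgG, computed from counts and folds, were 1.06 in sg-Ctrl and 1.35 in KO for H3K4me3. All 575 H3K4me3 peaks with the same position in both lists had equal IgG reads. With 1 library per condition no test was run. Intervals are exact Poisson, exact binomial (also for ratios of counts) and, for medians, from order statistics. Overlap means at least 1 bp. Joined regions hold all listed peaks that overlap across the libraries. The reads given for them are those inside each library's own listed peaks, not all reads of the region. Promoter composition came from NCBIM37 (GENCODE M1), from the transcript of the named gene closest in length, within 1000 bp. The calculation was tested on simulated data.

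The members and gene lists were chosen with earlier results of these data known. Genes named are the 20 highest ratios with overlapping peaks and at least 100 reads in either library, the 5 highest without overlap (1 of them is not reported here), 3 on each side of the threshold, up to 4 per gene list by KO reads, up to 8 with H3K27me3 in 1 library alone, the largest groups of neighbours, and Nup210. Further genes (other members of the gene lists, other genes without overlap, and Hdx, H19 and Fendrr) were named after their values were seen. Alternatives are given at the end. Software was Python 3.11.15 with numpy 2.4.6, scipy 1.17.1, pandas 2.3.3 and, for figures, matplotlib 3.10.9.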

Additional observations from a re-analysis of the deposited data

How the results depend on the processing

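No paired analysis was possible because each ChIP-seq condition has 1 library, and only the RNA-seq samples, not analysed here, share replicate numbers. Of 56 alternatives to 9 results, 39 stayed within 1.5 times of a count or within the counting interval of a share or median. The count of 268 genes became 64 by library size alone, 418 with total scaled reads and 673 with the fold over IgG. Among the 673 were 184 of the 268 members. The count was 1026 at a minimum of 1.5 and 52 at a minimum of 3. By an alternative chosen after seeing the data, it was 125 relative to the median of the same decile of both densities, of which 124 were members. The share of members with H3K27me3 became 22.0% in sg-Ctrl and 13.8% in KO where the peak had to overlap the TSS peak, and in KO 21.6% with a fold of at least 2 and 22.0% among the 418 genes. The share with NUP210 became 11.2% with an FDR of at most 0.01, 1.12% with a fold of at least 2 and 5.97% over the TSS peak, and that with NPC 0.746% and 5.97% in the last 2 cases. Among the 418 genes the median percentile was 6.01 and 2.39% had a narrower peak in KO. The cause was not tested. With the joined region 316 genes passed, among them 167 of the 248 members whose peaks overlap. With IgG reads subtracted 289 passed, among them 261 of the 268 members. Peaks were under 100 reads in both libraries in 10 of the 268 members (3.73%) and 0.910% of all genes.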
